A study of Homo sapiens with 29 samples.

Results

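PARM1, IGSF3, MAP3K3, TOR1B, PIM1 and SPARC are 6 of the 38148 genes in the deposited RNA table, grouped because each had less transcript after siRNA against DAXX, both with and without crotonate. That fall chose them, so their values with DAXX siRNA are given as a description and no test is read from them. All 6 passed the filter on low values, as did 17973 genes in all. The cells were HCT116, a human colorectal carcinoma line. In the first pair of groups they received 35 nM DAXX siRNA or 25 nM non-targeting siRNA together with 10 mM crotonic acid, and in the second pair the same siRNAs at the same doses without it, so DAXX siRNA and non-targeting siRNA were not dose-matched. Crotonate lasted 18 h by the series text and 48 h by the sample protocol. Each of the 4 groups has 4 RNA libraries. Chromatin immunoprecipitation with a pan antibody against crotonyllysine (anti-Kcr) has 2 libraries for each siRNA with crotonate and 4 for each siRNA without it, and 1 input library came from cells with DAXX siRNA. Nothing in the labels says whether replicates were separate cultures, so p-values measure only the spread between these libraries, which may be technical.

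DAXX deposits the histone variant H3.3 together with the remodeller ATRX and can also act as a transcriptional corepressor. Crotonate is converted in cells to crotonyl-CoA, the donor for lysine crotonylation, an acyl mark of histones that is found at active promoters and enhancers. The 6 genes have no common family. PARM1 encodes a heavily glycosylated mucin-like membrane protein, and IGSF3 encodes a membrane protein with immunoglobulin domains related to the EWI proteins, which bind tetraspanins. MAP3K3, also called MEKK3, encodes a kinase at the top of the MEK5-ERK5 cascade that also binds the CCM complex. TOR1B encodes torsin-1B, an ATPase of the endoplasmic reticulum and nuclear envelope. PIM1 encodes a constitutively active serine/threonine kinase whose transcription is induced by JAK-STAT signalling, and SPARC encodes a secreted collagen-binding matricellular glycoprotein that in colon tumours is made mainly by stromal cells.

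DAXX transcript averaged 19.3 ± 4.67 RPM (reads of the gene scaled to the library total, not divided by gene length) with DAXX siRNA and 100.3 ± 3.38 RPM with non-targeting siRNA in crotonate, and 24.6 ± 2.06 RPM against 103 ± 1.60 RPM without it (SD, n = 4 each). Residual DAXX in the DAXX siRNA cells was lower with crotonate than without (log2 difference -0.38, limma adjusted p = 0.045, libraries overlapping), and this moves with every comparison of crotonate in those cells. RNA libraries held 35003617 to 55128007 reads in genes. Of 10 colon epithelium markers, 8 were tested. The summed level of the 10 lay between 4190 and 5009 RPM with DAXX siRNA and crotonate, and 3850 and 4077 with non-targeting siRNA and crotonate. Without crotonate it lay between 4573 and 4999 with DAXX siRNA, and 4068 and 4782 with non-targeting siRNA. The siRNA arms thus did not overlap with crotonate, where DAXX siRNA cells had the higher sum, and overlapped without it. CDX1 had no read.

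Promoter sequence is shown for PARM1 and PIM1, whose starts lie in anti-Kcr regions, and for MAP3K3, whose start lies in none. Each is the RefSeq sequence (GRCh38.p14) from 250 bases before to 50 bases after the start, 5′ to 3′ on the gene's strand, and capitals mark GGGCGG, the GC box, or CCAAT, on either strand. The windows are chr4:74932866-74933165, chr6:37169902-37170201 and chr17:63622167-63622466, all on the plus strand.
PARM1: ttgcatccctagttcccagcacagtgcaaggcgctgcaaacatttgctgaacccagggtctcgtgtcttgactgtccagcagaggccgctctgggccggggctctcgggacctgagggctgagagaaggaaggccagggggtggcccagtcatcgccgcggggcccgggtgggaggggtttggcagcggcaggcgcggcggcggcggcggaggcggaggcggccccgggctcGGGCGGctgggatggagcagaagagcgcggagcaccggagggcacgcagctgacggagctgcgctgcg
PIM1: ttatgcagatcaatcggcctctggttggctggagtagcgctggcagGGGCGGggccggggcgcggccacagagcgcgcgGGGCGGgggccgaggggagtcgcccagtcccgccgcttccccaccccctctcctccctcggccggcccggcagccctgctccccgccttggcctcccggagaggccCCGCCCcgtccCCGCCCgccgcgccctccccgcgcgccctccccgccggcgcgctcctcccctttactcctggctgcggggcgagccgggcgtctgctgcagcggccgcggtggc
MAP3K3: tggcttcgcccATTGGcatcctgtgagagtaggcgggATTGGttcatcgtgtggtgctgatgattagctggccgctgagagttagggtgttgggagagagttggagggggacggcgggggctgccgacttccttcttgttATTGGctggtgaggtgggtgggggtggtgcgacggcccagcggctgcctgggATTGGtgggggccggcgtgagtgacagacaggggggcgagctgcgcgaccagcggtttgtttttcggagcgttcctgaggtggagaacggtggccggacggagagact

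The MAP3K3 window held CCAAT 4 times, each time on the opposite strand and so printed as ATTGG. At least 1 CCAAT stands in 35.7% of the 27305 promoters of the table and 4 or more in 1.06%. The PIM1 window held GGGCGG 4 times, in both orientations, a number reached or passed in 9.13% of promoters, and the PARM1 window held it once, as 44.6% of promoters do at least once. The SPARC promoter, also in the table, held neither motif. The TATA box TATAAA, found in 12% of all promoters, was in none of the 4 windows. Neither was TTCNNNGAA, the STAT motif, which 7.88% of promoters hold. The AP-1 motif TGANTCA (7.76% of promoters) was absent from them too. So was the E-box CACGTG (7.43%). Both strands were searched for each motif. The PIM1 window was 79.7% guanine and cytosine with 39 CpG, more CpG than 91.5% of promoters had. PARM1 followed with 71.3% and 28 CpG, MAP3K3 with 63.3% and 21, and SPARC with 61.3% and 11, against a median of 58.3% and 14 over all promoters. Promoters of TOR1B and IGSF3 were not used here. None of the 6 motifs searched is common to all 4 promoters.

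PARM1 (ENSG00000169116, chromosome 4, 74933095 to 75050115, plus strand, GRCh38) had the widest range of group means relative to its level. Its levels in libraries 1 to 4 were 14.8, 18.5, 14.4 and 17.2 RPM with DAXX siRNA and crotonate, and 41.0, 41.3, 42.0 and 40.9 RPM with non-targeting siRNA and crotonate. Without crotonate they were 8.58, 8.32, 8.65 and 7.34 RPM with DAXX siRNA and 16.8, 19.6, 19.9 and 19.8 RPM with non-targeting siRNA. The siRNA arms did not overlap in either condition, and DAXX siRNA cells held 39.3% of the non-targeting level with crotonate and 43.2% without. From high to low the groups ran non-targeting siRNA with crotonate, untreated non-targeting siRNA, DAXX siRNA in crotonate and untreated DAXX siRNA, with the middle pair overlapping. DAXX siRNA cells in crotonate averaged 85.2% of the untreated non-targeting level.

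IGSF3 (ENSG00000143061, chromosome 1, 116574399 to 116667755, minus strand) had the same order of groups. It stood at 46.9, 48.2, 39.5 and 48.0 RPM with DAXX siRNA and crotonate, and at 107, 114, 109 and 108 RPM with non-targeting siRNA and crotonate. Without crotonate it stood at 29.4, 33.8, 26.2 and 27.9 RPM with DAXX siRNA and at 58.6, 67.4, 59.3 and 62.8 RPM with non-targeting siRNA. Every group was separate from the next one in the order, and the DAXX siRNA level was 41.7% of non-targeting with crotonate and 47.2% without. In crotonate, DAXX siRNA cells had 73.6% of the untreated non-targeting level.

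MAP3K3 (ENSG00000198909, chromosome 17, 63622415 to 63696303, plus strand) followed another pattern, in which the siRNA alone separated the libraries. With crotonate it measured 15.9, 17.1, 15.3 and 16.6 RPM in DAXX siRNA cells and 39.2, 41.6, 37.5 and 39.8 RPM in non-targeting cells. Without crotonate it measured 16.8, 18.0, 13.8 and 17.3 RPM in DAXX siRNA cells and 33.6, 38.1, 32.7 and 34.1 RPM in non-targeting cells. DAXX siRNA cells held 41.1% of the non-targeting level with crotonate and 47.5% without, while the crotonate and untreated libraries of each arm overlapped. MAP3K3 is overlapped on the other strand by STRADA and LIMD2. The strand that was counted is not given in the sources used here, so reads of overlapping genes cannot be told apart. STRADA, a pseudokinase partner of LKB1, differed by -0.15 (log2, limma adjusted p = 0.586) with crotonate and -0.14 (adjusted p = 0.544) without, and LIMD2 by -0.31 (0.296) and -0.25 (0.406), DAXX siRNA over non-targeting.

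PIM1 (ENSG00000137193, chromosome 6, 37170152 to 37175428, plus strand) shared that pattern, with the smallest ratio between its highest and lowest group means of the 6. Its levels were 12.6, 12.9, 11.5 and 14.1 RPM in DAXX siRNA cells and 23.9, 27.3, 22.2 and 23.2 RPM in non-targeting cells with crotonate. Without crotonate they were 12.1, 12.2, 10.3 and 14.7 RPM in DAXX siRNA cells and 22.6, 21.8, 18.2 and 19.1 RPM in non-targeting cells. The DAXX siRNA level was 53.0% of non-targeting with crotonate and 60.4% without, with no overlap between the arms, and crotonate and untreated libraries of the same arm overlapped.

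TOR1B (ENSG00000136816, chromosome 9, 129803157 to 129811281, plus strand) was separated both by siRNA and by crotonate. It measured 17.7, 20.7, 19.1 and 20.9 RPM in DAXX siRNA cells and 36.0, 34.8, 37.3 and 34.5 RPM in non-targeting cells with crotonate. Without crotonate it measured 16.4, 15.6, 14.6 and 16.5 RPM in DAXX siRNA cells and 27.2, 30.4, 27.8 and 26.7 RPM in non-targeting cells. All 4 groups were separate. DAXX siRNA cells kept 54.9% of the non-targeting level with crotonate and 56.3% without, and DAXX siRNA cells in crotonate had 69.9% of the untreated non-targeting level.

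SPARC (ENSG00000113140, chromosome 5, 151661096 to 151686975, minus strand) was the least counted member, with 116 to 595 reads per library. It measured 3.70, 3.27, 3.92 and 3.86 RPM in DAXX siRNA cells and 12.6, 11.9, 9.45 and 13.1 RPM in non-targeting cells with crotonate. Without crotonate it measured 4.16, 4.68, 4.94 and 3.62 RPM in DAXX siRNA cells and 6.98, 8.67, 8.58 and 8.70 RPM in non-targeting cells. The arms did not overlap, and the DAXX siRNA level was 31.3% of non-targeting with crotonate and 52.8% without. SPARC is also a stromal gene, so fibroblast markers are set beside it: of 8, COL1A1 and PDGFRB were tested, and DCN and LUM had no read in any library. The summed level of the 8 lay between 19.5 and 27.7 RPM with DAXX siRNA and crotonate, 18.2 and 23.2 with non-targeting siRNA and crotonate, 12.1 and 19.4 with DAXX siRNA, and 11.4 and 21.5 with non-targeting siRNA, so the siRNA arms overlapped in both conditions. Summed endothelial markers reached at most 1.77 RPM and leukocyte markers at most 13.5 RPM in any library. In bulk samples fewer cells of a type and less RNA per cell cannot be told apart. CLMAT3, which overlaps SPARC on the other strand, had 376 reads over all 16 libraries against 4771 for SPARC. Its log2 difference, DAXX siRNA over non-targeting, was -1.36 (adjusted p = 0.224) with crotonate and -0.69 (adjusted p = 0.579) without, the same sign as SPARC, and reads of the pair cannot be told apart without the strand.

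**Figure D1:**
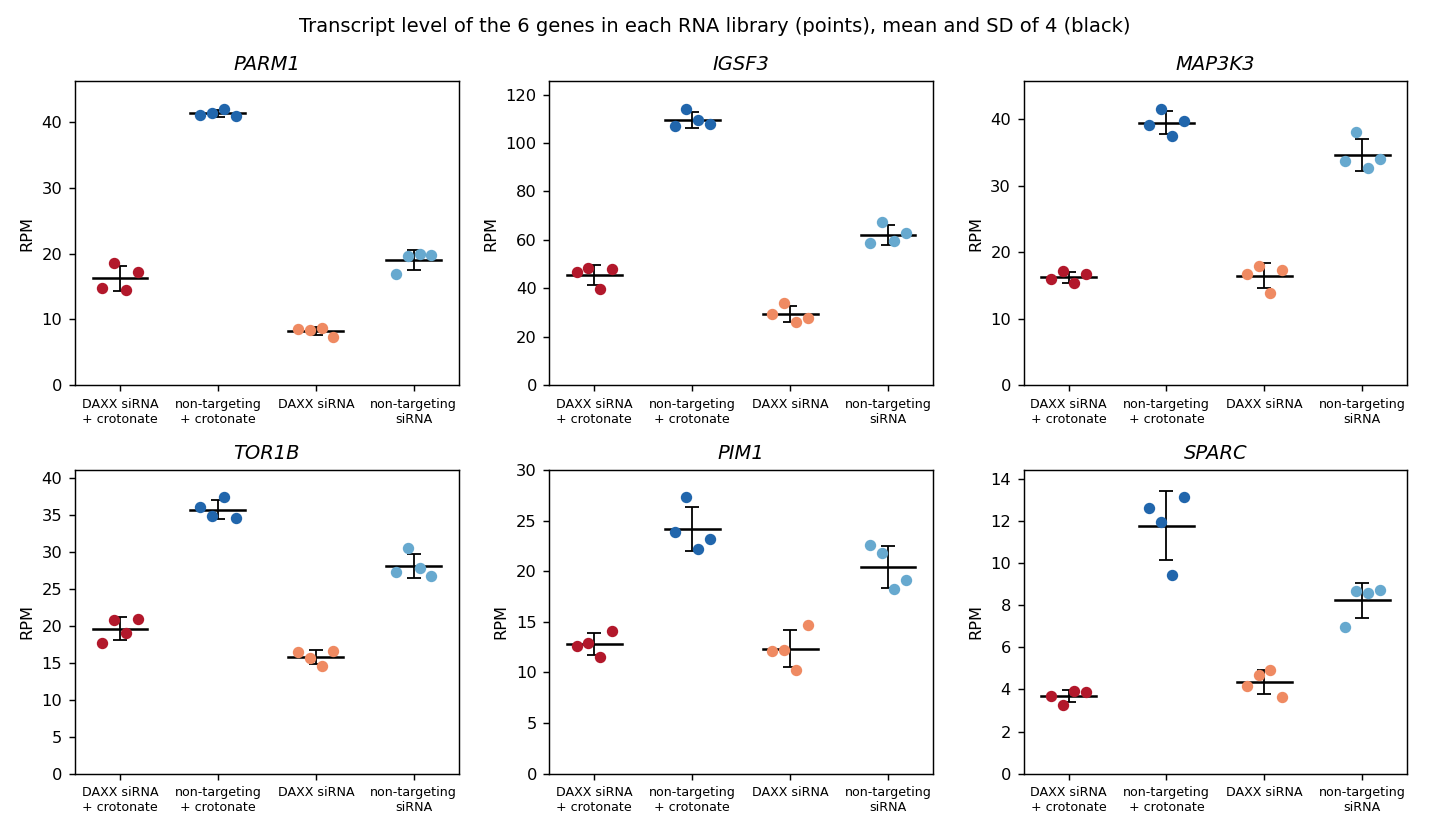
Transcript level (RPM, linear axis from 0) of each of the 6 genes in the 4 groups; points are libraries 1 to 4, black lines the mean and SD. In every panel both DAXX siRNA groups lie below the non-targeting group of the same crotonate condition, and PARM1 with DAXX siRNA and crotonate (14.4 to 18.5 RPM) overlaps untreated non-targeting cells (16.8 to 19.9 RPM).

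As a measure of how the 6 stand among all genes, limma called 120 of 17973 genes lower with DAXX siRNA in crotonate (0.668%), 55 without it (0.306%) and 49 in both (0.273%). The members are 6 of those 49, which follows from how they were picked. Groups of 4 that lay wholly below their counterpart, as all 6 members did, were found for 4.94% of genes with crotonate and 3.46% without. By the mean of the log2 differences SMIM40, which is not a member, was ranked 1 (-2.48 with crotonate, -2.15 without), and DAXX itself was ranked 2. SPARC, PARM1, MAP3K3 and IGSF3 were ranked 3 to 6, TOR1B was ranked 10 and PIM1 was ranked 12. PRELID2, ATAD2, CYBRD1 and IGSF9 were ranked among them and are not members. Just below PIM1, at -0.82, came ASIC1, a proton-gated cation channel gene, at -0.65.

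The rule that grouped the members did not use the change with crotonate, which is measured on the same libraries. The members were picked with earlier results of these data known, so counts of members that rose are a description. With DAXX siRNA 3 of the 6 members rose with crotonate, where 13% of all tested genes did, and with non-targeting siRNA 4 of the 6 rose, where 13.1% did. PARM1 rose 1.97-fold in DAXX siRNA cells (95% interval 1.72 to 2.25, limma adjusted p = 7.8e-07) and 2.18-fold in non-targeting cells (1.90 to 2.49, adjusted p = 1.7e-07). IGSF3 rose 1.56-fold (1.38 to 1.77, adjusted p = 3.2e-05) and 1.77-fold (1.56 to 2.00, adjusted p = 2.0e-06) in the same arms. For both genes every crotonate library lay above every untreated library of its arm, which 14.7% of genes showed in DAXX siRNA cells and 16% in non-targeting cells.

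TOR1B rose by less, 1.24-fold (1.11 to 1.39, adjusted p = 0.011) in DAXX siRNA cells and 1.27-fold (1.13 to 1.43, adjusted p = 0.0046) in non-targeting cells, again with no overlap. MAP3K3 and PIM1 did not pass the test in either arm. Their ratios were 0.991 (0.873 to 1.12, adjusted p = 0.948) and 1.04 (0.890 to 1.22, adjusted p = 0.774) in DAXX siRNA cells, and 1.14 (1.01 to 1.30, adjusted p = 0.158) and 1.18 (1.01 to 1.39, adjusted p = 0.151) in non-targeting cells. Crotonate changes above 1.39-fold lie outside all 4 intervals. PARM1, IGSF3 and TOR1B thus passed in both arms, and MAP3K3 and PIM1 in neither.

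SPARC was the member whose crotonate values differed most between the arms. It was 0.852 times the untreated level in DAXX siRNA cells (0.706 to 1.03, adjusted p = 0.260) and rose 1.43-fold in non-targeting cells (1.18 to 1.72, adjusted p = 0.0094). Subtracting the effect of DAXX siRNA without crotonate from that in crotonate gives the difference between the arms, which is built from the contrasts that chose the genes and is given as a description. On the log2 scale it was -0.74 for SPARC, -0.15 for PARM1, -0.18 for IGSF3, -0.20 for MAP3K3, -0.04 for TOR1B and -0.18 for PIM1. Over all 17973 genes limma and limma-voom each called 0 (0%) for this difference, against 433 (2.41%) with an unadjusted p under 0.05. The median difference was -0.18 for the 6 members and -0.01 for all genes.

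These calls depend in part on scaling. Centring each library on its median gene moved the median of all genes from 0.07 to -0.05 (log2) for crotonate in non-targeting cells, and of all called genes 46.2% were then higher, against 84.8% with the deposited scale. In DAXX siRNA cells the share was 50.4% after centring and 84.4% as deposited. PARM1 and IGSF3 rose in both arms under every scaling tried. TOR1B lost its calls after centring (0.19, adjusted p = 0.105, in DAXX siRNA cells and 0.22, adjusted p = 0.0655, in non-targeting cells), and with quantile scaling in DAXX siRNA cells only (0.20, adjusted p = 0.118). With quantile scaling SPARC fell by 0.44 in DAXX siRNA cells (adjusted p = 0.031) and its 0.32 in non-targeting cells did not pass (adjusted p = 0.114).

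**Figure D2:**
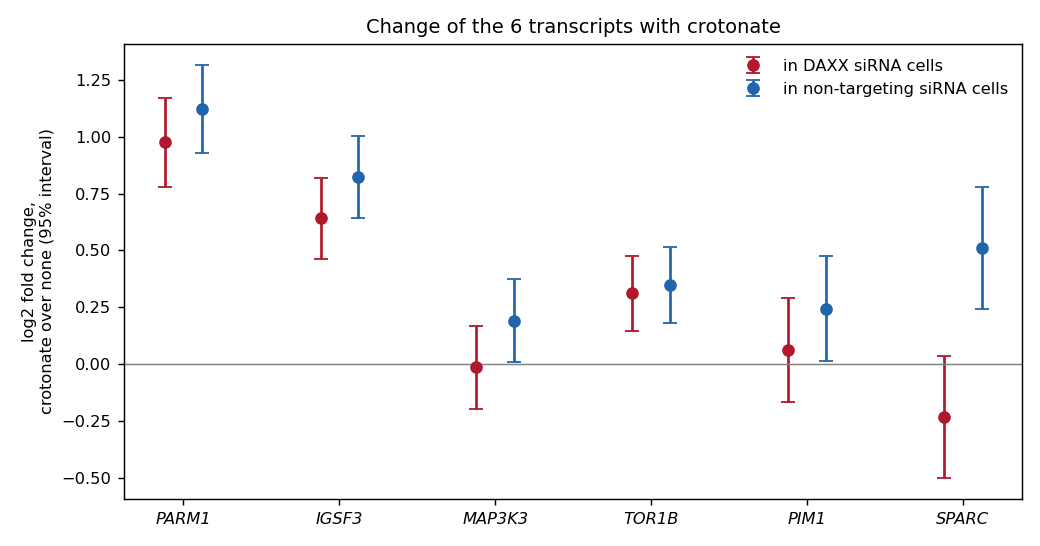
Log2 fold change with crotonate over none (vertical axis; points, with 95% intervals from limma) for each of the 6 genes, in DAXX siRNA cells (red) and non-targeting siRNA cells (blue). PARM1 and IGSF3 lie highest in both arms, MAP3K3 and PIM1 near 0 in DAXX siRNA cells, and SPARC is at -0.23 in DAXX siRNA cells and 0.51 in non-targeting cells.

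The 43 other genes lower with DAXX siRNA in both conditions give the nearest set to compare. DAXX, the siRNA target, is among the 43 and among the 5 that fell with crotonate in DAXX siRNA cells (-0.38, limma adjusted p = 0.045). With crotonate in DAXX siRNA cells 7 of the 43 rose and 5 fell by limma, with a median of 0.00 (log2), against 3 of 6 members higher with a median of 0.19, and 13% of all genes higher and 2.41% lower with a median of 0.06. In non-targeting cells 5 of the 43 rose, with a median of 0.11, against 4 of 6 members with a median of 0.43, and 13.1% of all genes with a median of 0.07. The members were picked from those genes with results known, so this is a description.

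Across the 16 libraries the members' log2 levels had Pearson r of 0.797 (PARM1 and SPARC) to 0.982 (PARM1 and IGSF3) with one another. The libraries share their siRNA and crotonate groups, and the members were chosen for falling in the same ones, so a high r follows from the choice. Likeness to the members' mean pattern over the 16 libraries was ranked for genes with an official symbol and at least the median level. The 5 closest other genes among these were the long non-coding RNA LINC00963 (r = 0.965), TNRC6C (0.960), which encodes a GW182 protein of the miRNA silencing complex, ASIC1 (0.958), FBXO21 (0.951), which encodes an F-box protein of ubiquitin ligases, and CACHD1 (0.946), a calcium channel subunit gene. All 5 had less transcript with DAXX siRNA, by 0.38 to 0.67 log2 units with crotonate and 0.32 to 0.66 without. That is less than any member showed in the same comparison, and without crotonate ASIC1 came closest, with 16.5 ± 1.17 RPM in DAXX siRNA cells and 26.3 ± 4.00 RPM in non-targeting cells.

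Genes next to the members on the chromosome were examined for a change of the whole neighbourhood. Of 12 nearest tested neighbours, 1 on each side of each member, limma called 0 higher and 0 lower with DAXX siRNA in either condition, against shares of 0.389% higher and 0.668% lower over all genes with crotonate and 0.1% and 0.306% without. An unadjusted p under 0.05 was reached by 1 of the 12 in each condition, where 10.9% and 12.2% of all genes reached it, and limma-voom called 0 in each. The closest was TOR1A, which encodes torsin-1A, the paralog of torsin-1B that is mutated in early-onset dystonia, and which lies 1.66 kb from TOR1B. TOR1A averaged 35.8 RPM with DAXX siRNA and 39.1 RPM with non-targeting siRNA in crotonate, and 43.4 against 46.2 RPM without (log2 difference -0.13, adjusted p = 0.590, and -0.09, adjusted p = 0.646). With crotonate TOR1A fell by 0.28 in DAXX siRNA cells (adjusted p = 0.015) and by 0.24 in non-targeting cells (adjusted p = 0.032), where 2.41% and 2.34% of all genes fell, and it fell under each scaling as well. TOR1B and TOR1A thus had opposite signs with crotonate under every scaling.

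Relatives of the members by family were then examined with DAXX siRNA. Of 101 tested genes from 9 family and pathway lists, members left out, limma called 3 lower and 1 higher with crotonate, where 0.668% and 0.389% of all genes were called. Without crotonate it called 0 lower and 0 higher, where 0.306% and 0.1% of all genes were called, limma-voom called 0, and 14 had an unadjusted p under 0.05, as 12.2% of all genes had. The median differences were 0.00 with crotonate and -0.02 without. For IGSF3 the EWI relatives IGSF8 (43.2 against 49.8 RPM, log2 difference -0.22, adjusted p = 0.597, with crotonate) and PTGFRN (170 against 163 RPM, 0.06, adjusted p = 0.845) did not pass. For MAP3K3 the closest kinase, MAP3K2, had 56.5 RPM with DAXX siRNA and 47.2 RPM with non-targeting siRNA, both without crotonate (0.28, adjusted p = 0.404). PIM2 had 17.4 against 16.2 RPM (0.10, adjusted p = 0.743) and PIM3 169.5 against 161 RPM (0.07, adjusted p = 0.932) with crotonate. SPARCL1 was near the lower limit of the counts, at 0.0763 RPM with DAXX siRNA and 0.205 RPM with non-targeting siRNA in crotonate. Without crotonate its sign was the opposite, at 0.233 against 0.121 RPM (log2 difference 0.88, limma adjusted p = 0.567).

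**Figure D3:**
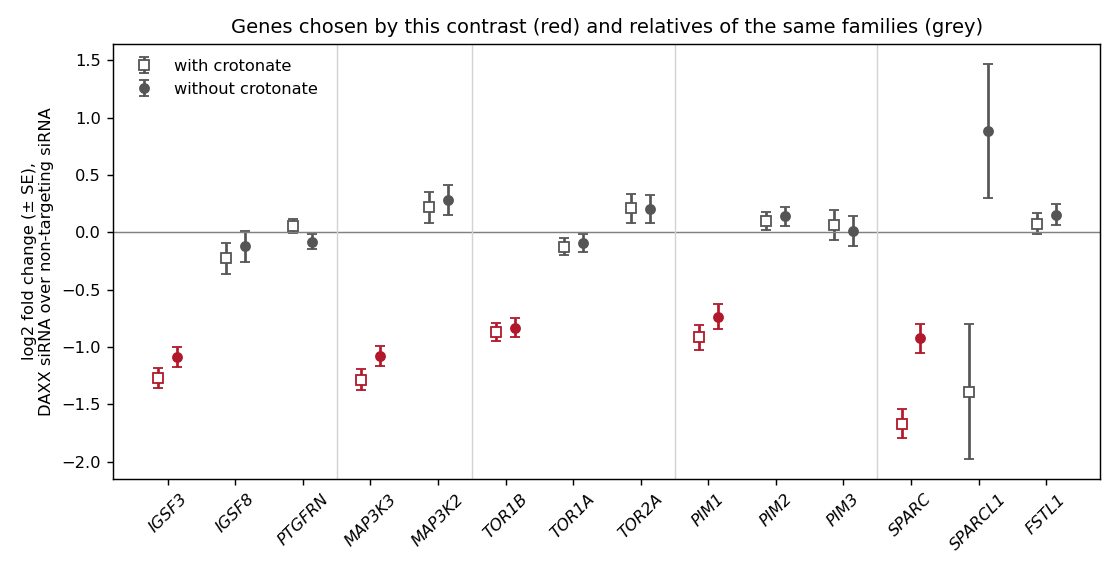
Log2 difference of DAXX siRNA over non-targeting siRNA (points, ± SE from limma) with crotonate (open squares) and without (filled circles) for 5 members (red) and close relatives (grey), families set apart by lines; PARM1 has no direct paralog in its list. The members lie between -1.67 and -0.73 because this contrast chose them, and of the relatives SPARCL1 has the widest errors.

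The family genes called with DAXX siRNA in crotonate were these. MAP3K12, the neuronal stress kinase DLK, was lower by 0.40 (adjusted p = 0.021), and SPP1, the secreted matricellular protein osteopontin, by 0.64 (adjusted p = 0.036). MUC4, a membrane mucin, was lower by 1.09 (adjusted p = 0.0495) at a level of 0.559 RPM against 1.19 RPM, and it did not pass after centring (adjusted p = 0.054) or quantile scaling (adjusted p = 0.095). KLF4, a transcription factor downstream of ERK5, was higher by 0.39 (35.4 against 26.9 RPM, adjusted p = 0.027).

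With crotonate more of the same 101 genes were called higher than lower under each scaling. In DAXX siRNA cells 25 rose and 2 fell, where 13% of all genes rose and 2.41% fell, and in non-targeting cells 24 rose and 1 fell, where 13.1% rose and 2.34% fell. On the deposited scale the same shares of all genes apply to each list that follows. After centring, 16 rose and 4 fell in DAXX siRNA cells and 17 rose and 6 fell in non-targeting cells, with medians of 0.07 and 0.06 in place of 0.18 and 0.19. With quantile scaling the counts were 12 and 3 in DAXX siRNA cells and 19 and 4 in non-targeting cells. Over all 17973 genes centring gave 1515 higher and 1488 lower in DAXX siRNA cells, and 1458 and 1701 in non-targeting cells. Quantile scaling gave 1448 higher and 852 lower in DAXX siRNA cells, and 1424 and 1010 in non-targeting cells. Calls under those scalings are to be set beside these counts. Among membrane mucins, 2 of 9 rose in each arm. MUC3A rose by 1.15 in DAXX siRNA cells and 0.96 in non-targeting cells. MUC12 rose by 2.31 in DAXX siRNA cells at low levels (0.375 RPM with crotonate, 0.0955 RPM without), and TMEM123, also called porimin, rose by 0.34 in non-targeting cells, a call lost after centring. Of the 12 EWI proteins and tetraspanins 3 rose in each arm, among them the tetraspanins TSPAN7 (1.81 and 1.23) and CD82 (0.61 and 0.72). PTGFRN rose by 0.23 in DAXX siRNA cells and IGSF8 by 0.48 in non-targeting cells, and neither passed after centring, nor did IGSF8 with quantile scaling.

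Of 16 other MAP3K kinases, MAP3K9 (0.31) and MAP3K10 (0.52) rose in DAXX siRNA cells, and neither passed after centring or quantile scaling. In non-targeting cells limma and limma-voom each called 0 of the 16 on the deposited scale, and 6 had an unadjusted p under 0.05. After centring and with quantile scaling MAP3K14 fell there, by 0.44 (adjusted p = 0.016) and 0.45 (adjusted p = 0.017). In the ERK5 cascade and CCM complex list 4 of 12 rose in DAXX siRNA cells and 3 in non-targeting cells. KLF4 rose by 0.82 and 0.74, KLF2 by 0.68 and 0.75, and HEG1, a membrane partner of the CCM complex, by 0.93 and 0.86 in those arms, and MEF2C, a transcription factor activated by ERK5, by 0.60 in DAXX siRNA cells. These genes kept their calls after centring, and with quantile scaling MEF2C and KLF2 lost theirs in DAXX siRNA cells. Of 6 torsins and cofactors, TOR2A rose by 0.39 and 0.38 and TOR1A fell as given above. TOR2A did not pass in either arm after centring or quantile scaling, and TOR3A was called lower in both arms after centring.

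Upstream of PIM1 stand the JAK-STAT genes. Of 21 genes of the JAK-STAT list, 5 rose and 1 fell in DAXX siRNA cells and 7 rose and 0 fell in non-targeting cells. The receptor genes LIFR (0.81 and 1.00) and IL6ST (0.36, adjusted p = 0.057, and 0.51, adjusted p = 0.0075), and the transcription factor genes STAT3 (0.42 and 0.37) and STAT4 (1.80 and 2.23), were among those measured, and IL6ST passed in non-targeting cells only. LIFR, STAT3 and STAT4 passed in both arms under each scaling. JAK3 rose by 0.62 and 0.60, calls that both other scalings lost. STAT6 was called lower in non-targeting cells under both. Of 8 genes of PIM1 substrates, the chemokine receptor gene CXCR4 rose in non-targeting cells (1.21). In the same cells CDC25A, a cell cycle phosphatase gene, fell by 0.36 after centring (adjusted p = 0.0057) and 0.28 with quantile scaling (adjusted p = 0.022), and AKT1S1 by 0.45 after centring (adjusted p = 0.011).

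In the SPARC family, 3 of 5 tested relatives rose with crotonate in DAXX siRNA cells and 2 in non-targeting cells. SPOCK1, which encodes a proteoglycan with a SPARC-like domain, rose by 2.60 and 4.51 in those arms. Its levels were low, at 0.239 and 0.559 RPM with crotonate and 0.0503 and 0.0231 RPM without. The 0.0231 RPM in untreated non-targeting cells is the value entered for no read, so 4.51 is not a measured fold. FSTL1 rose by 0.29 and 0.37, and SPOCK3 by 1.13 in DAXX siRNA cells. FSTL1 did not pass after either other scaling. With quantile scaling SPOCK1 and SPOCK3 were not called in DAXX siRNA cells either, which leaves SPOCK1 in non-targeting cells as the only relative that rose. In DAXX siRNA cells SPARCL1 fell by 1.79 after centring (adjusted p = 0.046) and 2.14 with quantile scaling (adjusted p = 0.032). Of 13 other matricellular genes 5 rose in each arm. FBLN5 rose by 1.64 and 1.80, SPP1 by 0.65 and 1.06, CCN2 by 0.75 and 0.74 and FBLN1 by 0.38 and 0.52 in DAXX siRNA and non-targeting cells. SPP1 and FBLN5 passed in both arms under each scaling, while CCN2 lost both calls with quantile scaling and FBLN1 lost that in DAXX siRNA cells under both other scalings. Unlike them, SPARC did not pass in DAXX siRNA cells with the deposited scale.

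Crotonylation was then read at the members. Of the 49916 deposited anti-Kcr regions, 9 carry a member's symbol, and the rule that grouped the genes did not use their values. Anti-Kcr libraries held 2226835 to 3639130 reads in regions and the input 1719036. Libraries 1A and 1B of each siRNA without crotonate differed by little or no more than sampling noise (chi-squared over its degrees of freedom 1.01 in both pairs, against 1.04 to 1.38 for other pairs of a group) and are counted as 1 sample, which leaves n = 2 with crotonate and n = 3 without.

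Regions cover the start of PARM1 (chromosome 4, 74932951 to 74934150), TOR1B (chromosome 9, 129800701 to 129805950) and PIM1 (chromosome 6, 37168801 to 37172250). They are 3 of 6 members, where 61.1% of tested genes, and 72.6% of those at or above the median level, have their start in a region. PIM1 has 2 more regions inside the gene, 3.00 and 4.35 kb from the start. The IGSF3 region lies 39.8 kb and the SPARC region 19.9 kb from the start, inside the genes. MAP3K3 has a region 21.8 kb from its start and a 32.5 kb one that begins 62.5 kb from it and runs past the end of the gene.

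**Figure D4:**
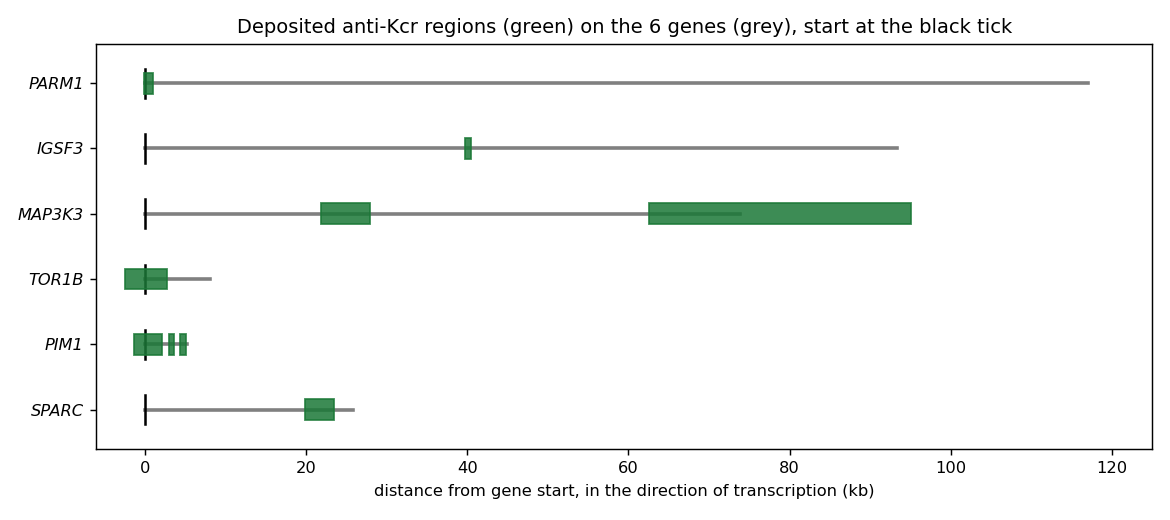
Position of the 9 deposited anti-Kcr regions (green) on the 6 genes (grey lines, horizontal axis in kb from the gene start in the direction of transcription). Regions cover the starts of PARM1, TOR1B and PIM1, and those of IGSF3, MAP3K3 and SPARC lie 19.9 to 62.5 kb from the start.

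Enrichment over the single input followed that position in part. The median over all regions was 0.90 (log2, mean of the anti-Kcr libraries minus input). The start regions stood at 1.02 for PARM1, 0.88 for PIM1 and 0.76 for TOR1B, and the internal PIM1 regions at 1.00 and 1.54. The regions away from starts stood lower, at 0.39 for IGSF3, 0.46 for SPARC, and 0.49 and 0.35 for MAP3K3, above only 2.14% to 7.38% of all regions. The input held 4 to 537 reads in a member region, so the smallest regions give a rough value.

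At the PARM1 start the scaled reads were 30.3 and 26.1 with DAXX siRNA and crotonate, and 21.5 and 19.3 with non-targeting siRNA and crotonate. Without crotonate they were 22.0 and 23.4 (1A and 1B), 40.7 and 31.6 with DAXX siRNA, and 23.9 and 23.4 (1A and 1B), 25.9 and 21.3 with non-targeting siRNA; the input had 12.7. The libraries with DAXX siRNA lay above those with non-targeting siRNA in crotonate and overlapped them without it. With 2 libraries against 2, groups can separate by chance, and the share of all regions that do was not counted. In crotonate the DAXX siRNA libraries lay below at the TOR1B start and in the SPARC region (67.4 and 67.8 against 70.3 and 82.1). At the PARM1 start the ratio of DAXX siRNA to non-targeting siRNA, input not subtracted, was 1.38 (95% interval 0.890 to 2.14) with crotonate and 1.31 (0.914 to 1.87) without. The PARM1 region thus had no detectable fall where the transcript was at 39.3% and 43.2%. It held 16 to 29 reads per library.

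At the TOR1B start the scaled reads were 91.0 and 86.0 with DAXX siRNA and crotonate and 102.3 and 102.0 with non-targeting siRNA and crotonate. Without crotonate they were 112, 107, 108 and 76.4 with DAXX siRNA and 118, 120, 114 and 89.0 with non-targeting siRNA (1A, 1B, 2 and 3). The log2 differences of -0.21 (-0.64 to 0.23) with crotonate and -0.14 (-0.50 to 0.22) without did not pass. At the PIM1 start they were -0.05 (-0.50 to 0.40) and -0.02 (-0.39 to 0.34), from 76.4 and 57.3 with DAXX siRNA against 78.1 and 60.1 with non-targeting siRNA in crotonate, and 100, 86.1, 96.9 and 77.7 against 98.5, 92.6, 85.8 and 89.0 without. Without crotonate the lower end of the interval was 0.709 times the non-targeting signal at TOR1B and 0.766 times at PIM1. The transcripts were at 56.3% and 60.4%. Input was not subtracted, and it had 58.2 scaled reads at the TOR1B start and 43.4 at the PIM1 start. A fall confined to the signal above input would move these ratios less, and such a fall was not tested.

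**Figure D5:**
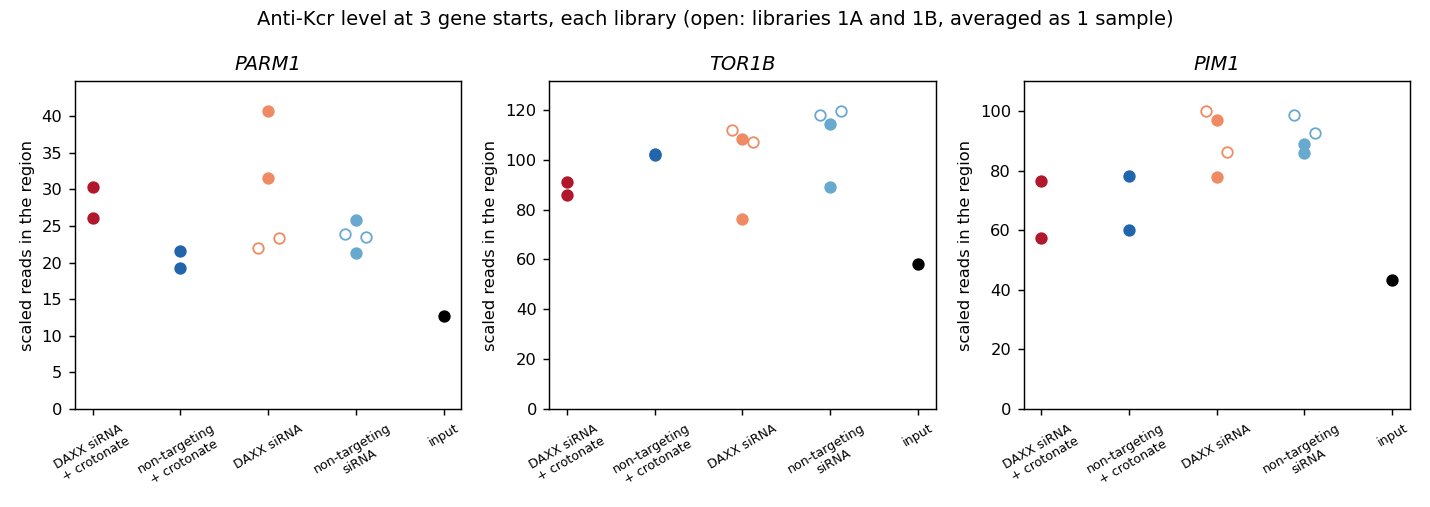
Scaled anti-Kcr reads (linear axis from 0) in the regions at the starts of PARM1, TOR1B and PIM1, by group, with the input in black; points are libraries, and open points are 1A and 1B. The siRNA groups overlap without crotonate, and at the PIM1 start both crotonate groups (57.3 to 78.1) lie low.

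Over the 9 regions, 4 had a positive and 5 a negative difference between the siRNAs in crotonate, and 3 and 6 without it, and limma called 0 of 9 in each (lowest adjusted p 0.999 and 1.000). It also called 0 of all 49916 regions, 0%, in both comparisons, and 4.17% and 2.38% had an unadjusted p under 0.05, while 0 of the 9 did. With crotonate 7 of 9 regions were lower and 2 higher in each arm, where the median of all regions was -0.16 in DAXX siRNA cells and -0.19 in non-targeting cells. Again 0 of 9 and 0 of 49916 (0%) were called in either arm, against 8.5% and 13.3% at an unadjusted p under 0.05. The PIM1 start was the only member region past that, in DAXX siRNA cells, at 0.746 times the untreated signal (0.562 to 0.989, adjusted p = 0.573), and it was at 0.761 times in non-targeting cells (0.573 to 1.01, adjusted p = 0.391). For the difference between arms 0 of 9 and 0 of 49916 (0%) were called, with 3.09% of all regions and 0 of the 9 past the unadjusted threshold.

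The regions inside IGSF3, SPARC and MAP3K3 gave log2 differences of 0.33, -0.17 and -0.10 with DAXX siRNA in crotonate, and 0.32, -0.15 and -0.04 without. The long region that carries the MAP3K3 symbol begins inside that gene, but most of it lies past the gene's end. This region also lies wholly within STRADA (63682336 to 63741986) and covers all of LIMD2 (63695888 to 63701172). With 499 to 736 reads per library, it was the best counted. Its ratio, input not subtracted, was 1.01 (0.825 to 1.25) with crotonate and 1.00 (0.845 to 1.18) without. The MAP3K3 transcript was at 41.1% and 47.5%, but the signal of this region cannot be assigned to MAP3K3 alone. The input had 568 scaled reads in this region, against a mean of 745 with non-targeting siRNA without crotonate. A fall confined to the signal above input would move these ratios less, and such a fall was not tested. The IGSF3 region held 6 to 19 reads, and its interval of 0.746 to 2.09 without crotonate allows changes in either direction. PARM1 and IGSF3, the members whose transcripts rose most with crotonate, had region ratios with crotonate of 0.913 and 0.837 in DAXX siRNA cells and 0.866 and 0.834 in non-targeting cells, all with intervals that include 1.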

How the data were processed

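Both deposited tables hold log2 values. The submitters' processing notes name Trim Galore (0.6.2 for RNA, 0.6.5 for ChIP), cutadapt 2.3, HISAT2 2.2.1, Bowtie2, MACS and GRCh38; no source used here gives counting, strand or pooling. From the values, the deposited RNA log2 values are log2 RPM with 0 reads entered as 0.9 read, and the ChIP values are log2 reads times 1 factor per library. Undoing these gave whole reads for 100% of values (tolerance 0.01 read, widened in proportion to the count). Genes with 0.25 RPM or more in 4 or more libraries were kept; all regions were tested. limma 3.58.1 (R 4.3.3) was fitted to the deposited log2 values over all 16 RNA libraries or 10 anti-Kcr samples, with group means as coefficients and a prior variance that follows the mean; p-values were Benjamini-Hochberg adjusted over all features of a comparison, and a call is an adjusted p under 0.05. The analysis was tested on simulated data. Alternatives were other filters and scalings, limma-voom on recovered reads, a replicate block and leaving out each library. The members and gene lists were chosen with earlier results of these data known. Named genes are the members, DAXX, direct paralogs, up to 4 called genes per list and comparison by adjusted p, and the 5 most alike genes; neighbours, overlapping genes and genes ranked near the members were chosen after their values were seen. Fold changes are DAXX siRNA over non-targeting siRNA, or crotonate over none. Errors are SD of libraries, or SE from limma.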

Additional observations from a re-analysis of the deposited data

Results flagged for a closer look

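In 3 of 24 groups of 4 libraries, 1 library lay apart from the other 3 by more than the limit of Dixon's test, where chance flags about 1 in 20 groups. PARM1 in non-targeting siRNA cells was lowest in library 1, at 16.8 RPM, and the next library had 19.6 RPM. SPARC in the same library was 6.98 RPM and the next 8.58 RPM. Without that library the rise with crotonate in non-targeting cells was 1.06 for PARM1 (log2, limma adjusted p = 1.37e-06) and 0.43 for SPARC (adjusted p = 0.042). IGSF3 in DAXX siRNA cells with crotonate was lowest in library 3, at 39.5 RPM, and the next had 46.9 RPM. Without it the rise of IGSF3 with crotonate in DAXX siRNA cells was 0.71 (adjusted p = 1.72e-05).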

How the results depend on the processing

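None of the 9 member regions was called under any of 16 alternatives. Members' calls with crotonate changed under scaling only, as given for TOR1B and SPARC. Over all genes, DAXX siRNA without crotonate gave 73 calls, 29 with only the libraries compared, 117 with a replicate block, and 39 to 87 with 1 library left out (46 without DAXX siRNA library 1 or non-targeting library 1, 39 without DAXX siRNA library 3). With crotonate it gave 190 calls and 95 to 333 with 1 library left out: 117 without DAXX siRNA and crotonate library 2, 333 without non-targeting library 2, and 107, 107, 97 and 95 without non-targeting and crotonate libraries 1 to 4. Replicate numbers were not taken as pairs: same-numbered RNA libraries had r of -0.25 to 0.19 and ChIP samples 0.00 to 0.09 in their deviations from group means. Of these, 7 of 16 and 9 of 10 were closest to their own number, for ChIP a hint from the data of a weak pairing. In the ChIP groups of 2 samples the deviations mirror each other, so the 9 of 10 are not independent. The block changed no call of a member. Regions called with crotonate in non-targeting cells numbered 0, 97 with 1A and 1B kept apart, 410 with a replicate block, and 0 to 44 with 1 sample left out (1 without DAXX siRNA and crotonate sample 2 or 3, 44 and 10 without non-targeting and crotonate sample 2 or 3). In DAXX siRNA cells the numbers were 0, 3, 3 and 0 to 395 (395 without DAXX siRNA and crotonate sample 2). For DAXX siRNA with crotonate they were 0, and 0 to 6 with 1 sample left out (6 without DAXX siRNA and crotonate sample 2, 2 and 4 without non-targeting and crotonate sample 2 or 3). The causes were not tested. With 2 or 3 samples a group and 5 to 128 reads in 8 of the 9 member regions, small changes of anti-Kcr signal were not detectable.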
